A study of Homo sapiens with 5 samples.

Results

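The interferon response genes described here are 47 interferon-stimulated genes and regulators of that response, named in a list that leaves out MHC class I, and found by symbol among the 58929 genes of 5 libraries from A549 cells. A549 is an established human lung adenocarcinoma line. The cells had been made to carry less or more RBMS1, an RNA-binding protein, for good, and the series text describes the libraries as ribosome footprint profiling, in which RNA pieces shielded by ribosomes are sequenced. All cells grew in the same medium and were given cycloheximide (100 μg/mL, 15 min), which holds ribosomes on mRNA, before lysis. The 5 libraries are a short hairpin control (sh control), 2 knockdown libraries made with different RBMS1 hairpins (sh1088 and sh1196), a control called pCDH for the overexpression cells, and 1 RBMS1 overexpression library (labelled R1A). No source used here says whether each stable line is a pool or a clone, whether the overexpressed RBMS1 carries a tag, or when after its making each line was harvested. Every line other than the knockdown is a single library, and the 2 knockdown libraries differ in their hairpin, so any p-value rests on the spread between these few libraries, technical or not. The molecule label reads total RNA and the RNA input is not analysed here, so a difference in ribosome load and a difference in mRNA level cannot be told apart. In bulk libraries, fewer responding cells and less RNA in each cell cannot be told apart either.

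Type I interferons bind a cell-surface receptor whose JAK1 and TYK2 kinases phosphorylate transcription factors such as STAT2. With IRF9 these form a complex that binds interferon-stimulated response elements (ISREs) in the promoters of target genes, and a second element, the gamma-activated site (GAS), serves the response to interferon gamma. The targets act on separate steps of viral growth: they sense foreign RNA, stop its translation, block virus entry or release, and tag proteins with the ubiquitin-like ISG15. Epithelial cells keep a low level of many of these proteins without added interferon.

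The libraries held 10327747 to 13980843 expected counts. Nuclear protein-coding genes took 37.7% of them in the sh control, 42.2% in sh1088, and 62.3% to 66.3% in the other 3, and the mean fragment length ran from 40.9 nt (overexpression) to 52.3 nt (pCDH control). Levels are given as scaled CPM, in which each count is set against its library's total after TMM scaling, an edgeR step that lines up the bulk of genes between libraries. RBMS1 itself stood at 31.2 scaled CPM with the control hairpin against 18.3 and 13.3 with sh1088 and sh1196, and at 25.0 with the pCDH vector against 36.5 with overexpression. Its knockdown log2 change was -0.93 (edgeR adjusted p = 0.828) and its overexpression log2 ratio was 0.55, so on this scale both lay on the side the label names, with no call in edgeR. All 7 markers listed for A549 as an epithelial line were measured, at a sum of 2740 to 4262 scaled CPM. Of 6 immune markers PTPRC and CD3E were at 0 counts in all 5 libraries, and the sum of the list, carried by CD14 and CD68, was 28.4 for the sh control, 35.1 for sh1088, 68.8 for sh1196, 110.4 for the pCDH control and 37.1 for overexpression. Of 5 fibroblast markers DCN was at 0 throughout (sums of at most 9.68), and of 3 endothelial markers VWF was (sums of 0.154 to 1.16).

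Promoter sequences are shown for 4 members whose levels were at or near 0 in 1 or 2 libraries and clearly above it in the others. They come from RefSeq (GRCh38.p14) and run from 250 bases before to 50 after the annotated gene start. An entry was found for 35 of the 47 members. Capitals mark each ISRE-like match, which is 2 copies of GAAA with any 2 bases in between, or 2 copies of TTTC spaced the same way, its form on the other strand. The first window belongs to IFIT1 (chr10:89392373-89392672, plus strand), which binds viral RNA lacking cap methylation. The second belongs to IFI27 (chr14:94110486-94110785, plus strand), which codes for a small membrane protein. The next is that of BST2 (chr19:17405581-17405880, minus strand), also called tetherin, which holds budding virus at the cell surface. The last is that of MX1 (chr21:41420308-41420607, plus strand), a dynamin-like GTPase that blocks influenza virus.
IFIT1: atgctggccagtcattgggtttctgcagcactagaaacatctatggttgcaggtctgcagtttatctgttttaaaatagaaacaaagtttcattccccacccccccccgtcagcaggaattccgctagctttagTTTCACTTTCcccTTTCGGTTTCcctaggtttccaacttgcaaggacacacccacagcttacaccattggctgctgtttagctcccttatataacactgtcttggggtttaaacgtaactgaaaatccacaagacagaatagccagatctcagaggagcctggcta
IFI27: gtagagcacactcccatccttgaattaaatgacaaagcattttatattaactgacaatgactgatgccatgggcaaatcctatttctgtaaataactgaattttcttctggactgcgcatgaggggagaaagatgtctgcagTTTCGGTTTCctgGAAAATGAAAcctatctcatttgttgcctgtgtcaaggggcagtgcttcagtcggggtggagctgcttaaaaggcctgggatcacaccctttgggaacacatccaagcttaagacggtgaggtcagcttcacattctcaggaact
BST2: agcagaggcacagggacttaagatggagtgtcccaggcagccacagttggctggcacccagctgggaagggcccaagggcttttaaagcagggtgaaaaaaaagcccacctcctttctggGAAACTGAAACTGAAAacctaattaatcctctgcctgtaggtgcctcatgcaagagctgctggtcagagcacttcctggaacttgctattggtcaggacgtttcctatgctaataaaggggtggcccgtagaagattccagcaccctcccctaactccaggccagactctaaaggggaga
MX1: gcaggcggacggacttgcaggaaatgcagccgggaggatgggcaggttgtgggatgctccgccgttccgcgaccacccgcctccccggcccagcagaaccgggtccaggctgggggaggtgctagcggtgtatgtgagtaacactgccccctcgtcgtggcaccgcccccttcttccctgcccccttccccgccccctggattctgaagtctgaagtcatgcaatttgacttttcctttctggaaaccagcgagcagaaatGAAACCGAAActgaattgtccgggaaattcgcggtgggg
In IFIT1 the matches begin 116 and 103 bases before the gene start, and in IFI27 108 and 95 bases before it. BST2 has a pair of overlapping matches that begin 130 and 124 bases before the start, while the only match in MX1 begins at base 12 counted from the start. An ISRE-like match was present in 22 of the 35 member windows (62.9%), against 3.57% of all 35116 windows of that length. The GAS motif TTCNNNGAA, which reads the same on both strands, was present in 8 of the 35 (22.9%), against 7.66% of all windows. A match here is a run of letters and says nothing on whether the complex was bound.

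Across the 5 libraries the members summed to 879.9 scaled CPM for the sh control, 843 for sh1088, 536 for sh1196, 478 for the pCDH control and 802 for overexpression. So sh1196 and the pCDH control stood below the other 3, and the lower pair holds 1 knockdown and 1 control. As a share of nuclear protein-coding counts, which does not depend on the scaling, the members took 0.160%, 0.163%, 0.102%, 0.0888% and 0.148% in the same order. Of the 39 members with a single lowest library, that library was the pCDH control for 27 (69.2%, against 29.8% of all genes) and sh1196 for 11 (28.2%, against 16.1%). It was sh1088 for 1 member, and the sh control and the overexpression library for 0. At the other end, 15 of 40 members were highest in the sh control (37.5%, against 24.4% of all genes) and 11 in sh1088 (27.5%, against 13.3%). The overexpression library was highest for 9 (22.5%, against 17.7%) and sh1196 for 4 (10%, against 14.4%), both near the share of all genes. Only IRF3 was highest in the pCDH control (2.5%, against 30.2%).

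**Figure D1:**
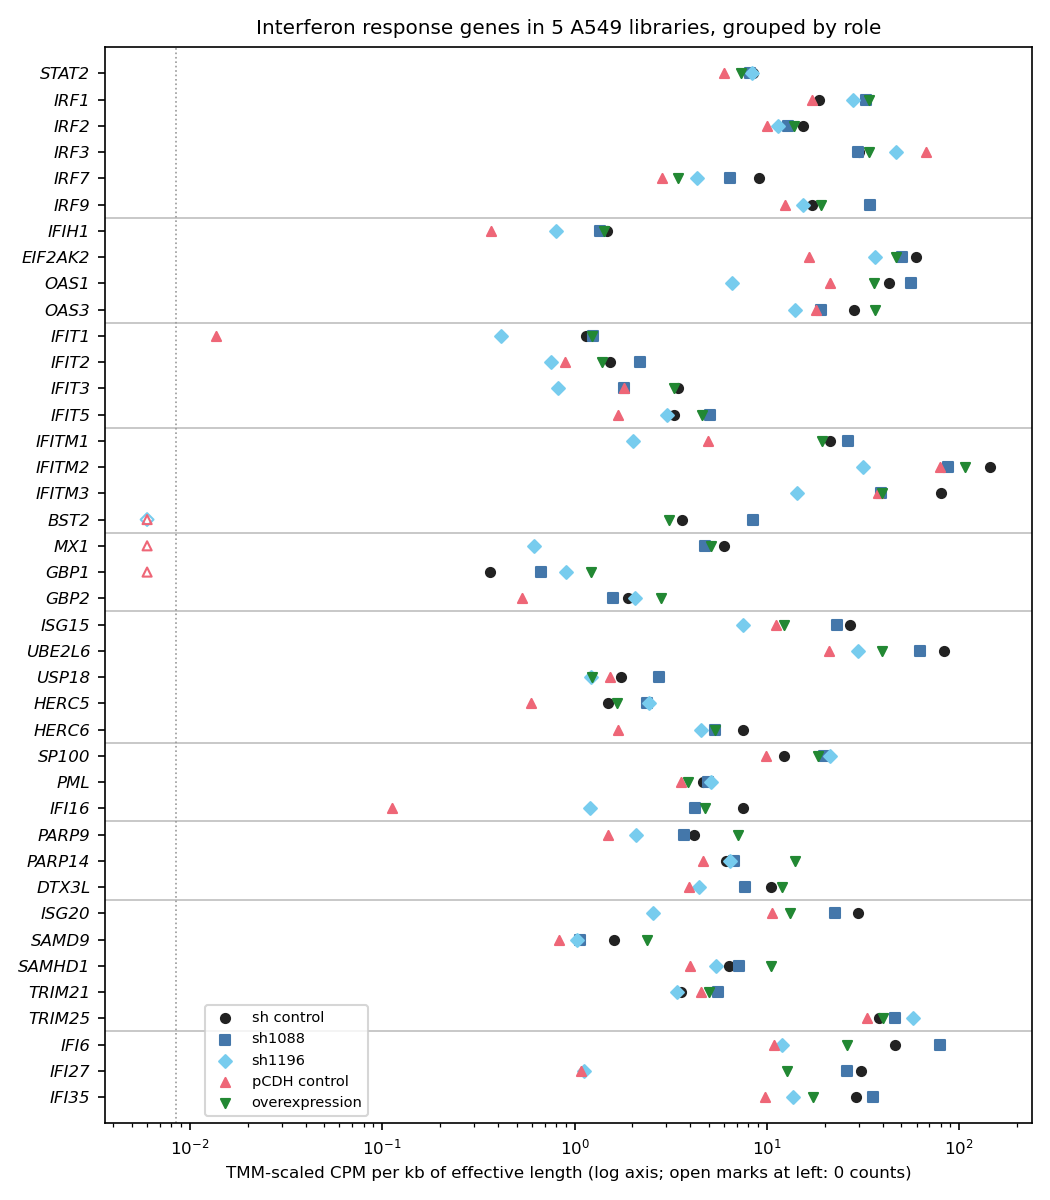
Level of the 40 members with a mean of at least 1 CPM, as TMM-scaled CPM per kb of effective length on a log axis, with 1 mark per library and lines between role classes; open marks at the left are libraries with 0 counts. The pCDH control (triangles pointing up) and sh1196 (diamonds) hold the lowest value of most members, and IRF3 is the member highest in the pCDH control.

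Of the 47 members, 40 had a mean of at least 1 CPM, and only these enter the counts of ratios below. A member that is high in some libraries can pass such a filter through those alone. The other 7 were near the detection limit, with 0 to 18 counts in a library. In the library order just used, IFI44 had 9, 13, 5, 0 and 18 counts, CMPK2, a mitochondrial nucleotide kinase, 7, 7, 0, 0 and 13, and OASL, an inactive OAS relative, 4, 13, 17, 0 and 13. Their 0 counts thus fell in the pCDH control, and for CMPK2 in sh1196 too. MX2, which blocks nuclear entry of retroviruses, had 5, 3, 0, 0 and 2 counts, DHX58 (LGP2), a helper of MDA5, 8, 0, 2, 7 and 0, OAS2 2, 7, 1, 4 and 8, and IFI44L 3, 10, 5, 11 and 4. Per kb of effective length, mean scaled CPM was highest for IFITM2 (90.0), UBE2L6 (47.0), TRIM25 (43.0), IFITM3 (42.1), EIF2AK2 (42.1) and IRF3 (41.5). Among the 35 members with over 3 counts in every library, the highest library exceeded the lowest 1.42-fold (STAT2) to 28.3-fold (IFI27), with a median of 3.20-fold. In GENCODE release 29, 10 members overlap another gene on the same strand and 21 overlap one on the opposite strand. The annotated IFITM2 gene spans IFITM1 (chromosome 11, 313506 to 315272), and PARP9 and DTX3L overlap head to head. Counts of such genes can be split or shared between partners, since no source used here says whether strand was used in counting.

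In the role-by-role account, 5 values in a row stand for scaled CPM in the sh control, sh1088, sh1196, the pCDH control and the overexpression library. Log2 ratios of 1 library to another carry exact conditional 95% intervals for counting error only, with no replicate check and no p-value. Where 1 side has 0 counts, the ratio is a bound set with 3 counts in that library.

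Among the 6 signalling factors, STAT2, a transducer of the receptor signal, varied least, at 16.4, 15.8, 16.2, 11.6 and 14.2. IRF9, its DNA-binding partner, was at 13.4, 27.0, 12.1, 9.68 and 14.9, and so stood out in sh1088 alone. IRF1, a factor that switches on many of the same targets, was at 18.3, 31.9, 27.5, 16.8 and 33.3. The 2 controls were thus its lowest libraries, and both hairpins and overexpression lay above them. IRF3, the factor that sensors activate to start interferon production, was at 39.3, 38.9, 60.9, 87.8 and 44.2. It is the reverse of most members, highest in the pCDH control, with an overexpression log2 ratio of -0.99 (-1.14 to -0.85). Taken against the sh control that ratio was 0.17, and with its GC trend taken out it was -0.34. IRF7, which amplifies interferon transcription, was at 9.64, 6.76, 4.55, 3.01 and 3.66, and IRF2, a partial antagonist of IRF1, at 17.4, 14.5, 12.9, 11.2 and 15.6. None of the 6 differed 2-fold between overexpression and its control.

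RNA sensors and the OAS enzymes, which answer double-stranded RNA with an oligoadenylate signal, summed to 213, 184, 111, 84.5 and 197. EIF2AK2 (PKR), a kinase that stops translation on double-stranded RNA, is the most abundant of them, at 125, 105, 76.5, 34.7 and 98.1. The pCDH control lay well below all others, and the overexpression log2 ratio was 1.50 (1.36 to 1.64). IFIH1 (MDA5), a sensor of long double-stranded RNA, was at 4.38, 4.06, 2.39, 1.10 and 4.24, with an overexpression ratio of 1.95 (1.16 to 2.79). OAS1 had its lowest value elsewhere, in sh1196, at 28.4, 36.8, 4.32, 14.1 and 23.6. Its sh1196 to sh1088 log2 ratio was -3.09 (-3.53 to -2.68). OAS3 was at 53.4, 36.0, 26.6, 34.0 and 69.1, a ratio of 1.02 (0.87 to 1.18) for overexpression.

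The IFIT proteins bind foreign RNA ends. IFIT1 had 39, 51, 23, 1 and 63 counts, or 4.88, 5.31, 1.77, 0.058 and 5.24 scaled CPM. Its overexpression log2 ratio was 6.50, and with 1 count in the pCDH control the interval ran from 3.97 to 11.82. Against the sh control the pCDH control stood at -6.40 (-11.74 to -3.83), so the pCDH control was the low library, with the sh control and overexpression close together. IFIT2 (4.88, 6.97, 2.39, 2.84 and 4.41) and IFIT3 (8.14, 4.27, 1.93, 4.23 and 7.74) were lowest in sh1196. IFIT5 was at 13.0, 20.2, 12.1, 6.72 and 18.4, lowest in the pCDH control.

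IFITM proteins block virus entry at membranes, and with BST2 they summed to 153, 99.1, 29.5, 75.1 and 105. This is the class in which sh1196 was lowest for all 3 IFITM genes. IFITM1 was at 13.9, 17.3, 1.31, 3.25 and 12.6. Both low libraries stood far from the other 3, with a sh1196 to sh1088 log2 ratio of -3.72 (-4.53 to -3.00) and an overexpression ratio of 1.95 (1.50 to 2.42). IFITM2 was at 92.2, 55.9, 20.1, 50.8 and 68.7, and IFITM3 at 44.8, 21.9, 8.02, 21.0 and 22.0. For IFITM3 the pCDH control, overexpression and sh1088 lay together, below the sh control, and the overexpression ratio was 0.07 (-0.17 to 0.30). By the authors' TPM it was -0.67, on a scale where the median of all genes was -0.65. BST2 had 14, 39, 0, 0 and 18 counts. Overexpression was thus at least 8.61-fold higher than the pCDH control, and sh1196 at least 17.5-fold lower than sh1088.

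Of the GTPases, MX1 had 48, 46, 8, 0 and 62 counts. It was at least 29.7-fold higher in overexpression than in the pCDH control, and 0.617 scaled CPM in sh1196 against 4.79 in sh1088. GBP1 and GBP2, guanylate-binding proteins that attack pathogen vacuoles, did not share the low value in sh1196. GBP1 had 5, 11, 20, 0 and 25 counts, at least 12.0-fold higher in overexpression than in its control. GBP2 was at 5.39, 4.47, 5.86, 1.51 and 7.99, with an overexpression log2 ratio of 2.41 (1.77 to 3.09).

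The ISG15 pathway comprises the modifier, its E2 enzyme UBE2L6, the ligases HERC5 and HERC6 and the protease USP18, which removes ISG15 and also damps the receptor. ISG15 was at 16.0, 13.8, 4.47, 6.61 and 7.32, and UBE2L6 at 59.2, 44.4, 21.1, 15.0 and 28.2. For both the sh control and sh1088 were the 2 highest libraries, and overexpression stayed below them. HERC5 (4.76, 7.60, 7.79, 1.91 and 5.32) and HERC6 (11.4, 8.12, 6.87, 2.55 and 8.15) were lowest in the pCDH control, with overexpression ratios of 1.48 (0.85 to 2.13) and 1.68 (1.15 to 2.22). USP18 was at 3.63, 5.72, 2.55, 3.19 and 2.58, and its overexpression ratio of -0.31 (-0.99 to 0.35) did not differ from 0 beyond counting error.

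IFI16, a nuclear DNA sensor, had 92, 63, 24, 3 and 88 counts. Its overexpression log2 ratio was 5.40 (3.80 to 7.70) and its pCDH to sh control ratio -6.05 (-8.35 to -4.46). The nuclear body proteins differed from it. SP100 was at 15.8, 25.3, 27.2, 12.6 and 23.6, with both hairpins above both controls, and PML at 11.8, 12.4, 13.0, 8.98 and 9.73, with an overexpression ratio of 0.12 (-0.24 to 0.47). By TPM the ratio of PML was -0.66, where the median of all genes was -0.65.

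The ADP-ribosylation class is the one whose 3 members were all highest in the overexpression library. PARP9 was at 10.3, 9.05, 5.09, 3.65 and 17.3, its partner ligase DTX3L at 24.9, 18.3, 10.5, 9.33 and 28.5, and PARP14, an ADP-ribosyltransferase, at 19.2, 21.1, 20.1, 14.5 and 43.7. Their overexpression log2 ratios were 2.24 (1.83 to 2.67), 1.61 (1.33 to 1.89) and 1.59 (1.37 to 1.81). As PARP9 and DTX3L overlap on opposite strands, some counts may be shared between them, which was not tested.

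Among other effectors, ISG20, an exonuclease that degrades viral RNA, was at 17.0, 13.0, 1.47, 6.09 and 7.57, lowest in sh1196. SAMD9 (9.27, 6.14, 5.94, 4.81 and 13.7) and SAMHD1, a hydrolase of dNTPs (11.4, 12.9, 9.80, 7.13 and 18.9), were highest in overexpression, with ratios of 1.51 (1.12 to 1.91) and 1.41 (1.08 to 1.73). TRIM21, a cytosolic antibody receptor (6.76, 10.5, 6.48, 8.64 and 9.40), and TRIM25, a ubiquitin ligase of the RIG-I pathway (45.3, 54.7, 67.9, 39.1 and 47.8), varied little. The overexpression ratio of TRIM21 was 0.12 (-0.24 to 0.48), and -0.41 by TPM, above the median of all genes on that scale (-0.65).

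IFI27, IFI6 and IFI35 had low values in both sh1196 and the pCDH control. IFI27 had the widest range among members with over 3 counts in every library, at 14.8, 12.5, 0.540, 0.522 and 6.16. Its log2 ratio was -4.53 (-5.88 to -3.44) for sh1196 to sh1088 and 3.56 (2.56 to 4.75) for overexpression, yet overexpression lay below the sh control (-1.26). IFI6, a mitochondrial and endoplasmic reticulum protein that limits apoptosis, was at 35.7, 60.8, 9.26, 8.35 and 20.1. IFI35 was at 25.4, 31.4, 12.0, 8.64 and 15.2.

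**Figure D2:**
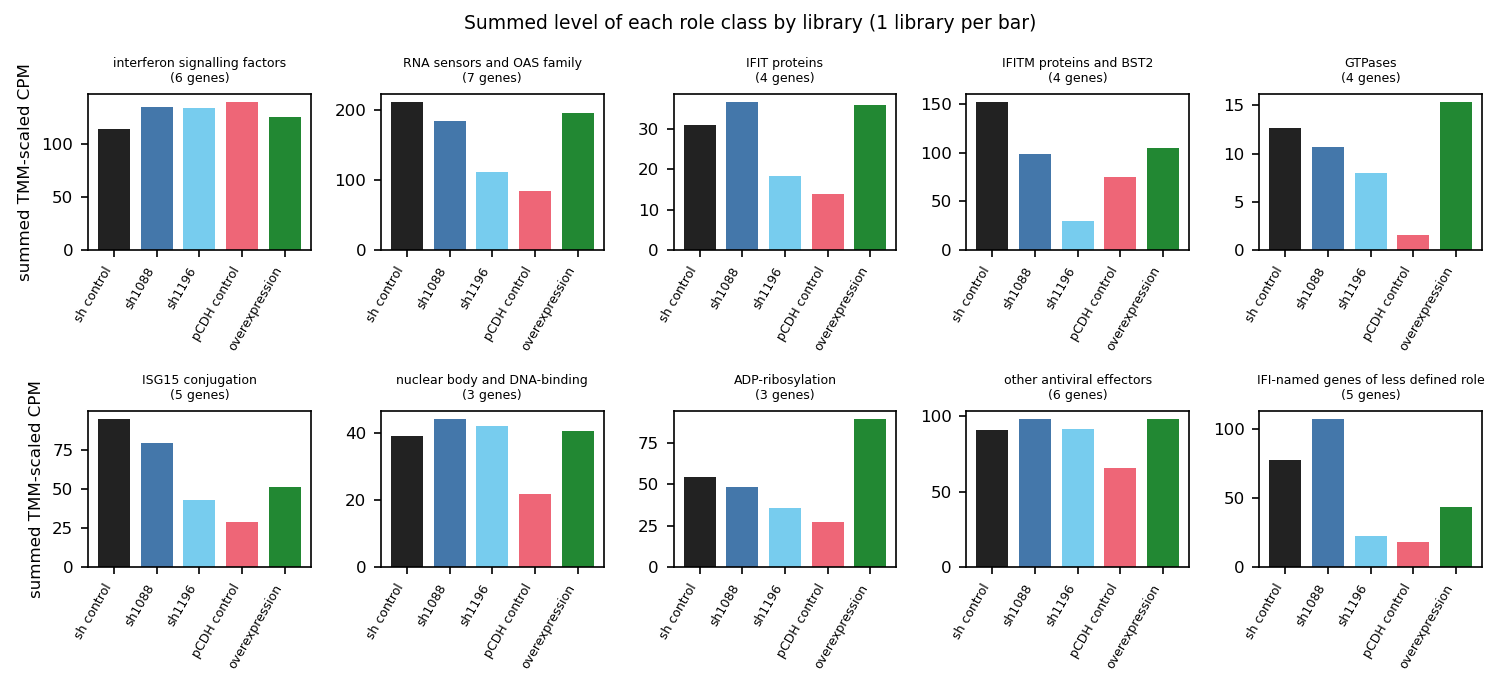
Summed TMM-scaled CPM of each of the 10 role classes, 1 bar per library, with each axis starting at 0; a sum is weighted to the most abundant genes of its class. The pCDH control bar is lowest in 8 classes, the IFITM and BST2 class is lowest in sh1196, and the signalling factors, the class that holds IRF3, are the only one in which the pCDH bar is the highest.

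The first design comparison sets RBMS1 overexpression against the pCDH control. Many of the members had a higher scaled level in the overexpression library. Of 40 members 20 were at least 2-fold higher, where 16.1% of all 13827 genes were. At least 2-fold lower were 0, where 17.5% of all genes were. The median log2 ratio of the members was 1.00, against -0.0013 over all genes, and 38 of 40 were above 0. Set against the sh control, however, the overexpression library had 2 members above the 2-fold mark and 6 below it. The median was -0.15, against 0.0031 over all genes. In the authors' TPM (pseudocount 1) 9 members were at least 2-fold higher and 1 lower, with a median of 0.29. On that scale the median of all genes was -0.65. Shares of all genes past the 2-fold mark were not counted for these settings, so the counts of members have no background beside them. The ratio also moved with base composition, taken as the GC content of the longest transcript of a gene. Spearman's rho with it was -0.50 across 13827 genes and -0.54 across the 40 members, which share the same pair of libraries. With the GC trend taken out, 23 members were at least 2-fold higher, 0 lower, and the median was 1.14. The difference in fragment length between this pair of libraries (40.9 and 52.3 nt) was not tested, nor was the difference in their CD14 and CD68 levels.

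**Figure D3:**
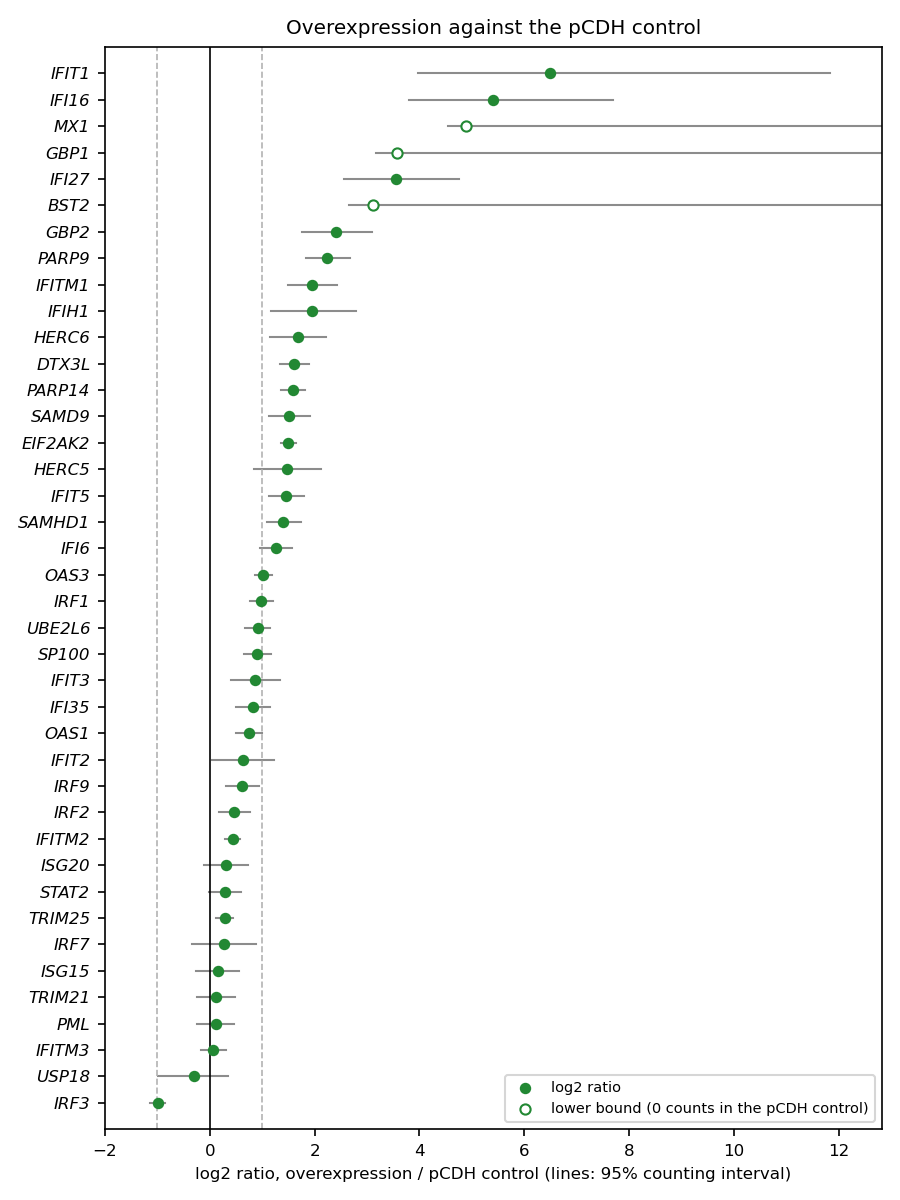
Log2 ratio of overexpression to the pCDH control (TMM scale) for 40 members, with 95% counting intervals; open circles are lower bounds set with 3 counts in the pCDH control, and the line through each starts at the lower limit of its counting interval. Of the 40 points 38 lie above 0, from IFIT1 at 6.50 down, and IRF3 lies lowest at -0.99; against the sh control the median is -0.15.

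The 2 controls differed from each other in these genes. In the pCDH control 22 of 40 members were at least 2-fold lower than in the sh control, against 20.9% of all 13808 genes, and 1 (IRF3, log2 ratio 1.16) was at least 2-fold higher, against 19.8%. This comparison shares the pCDH library with the overexpression ratio, so the values of each member mirror each other in part. The median was -1.19 on the TMM scale, with -0.0111 over all genes, but 0.67 by the authors' TPM, where the median of all genes was 1.69. The median member was thus below the median gene on both scales, while the sign of its ratio turned. The members' part of nuclear protein-coding counts was 0.160% in the sh control and 0.0888% in the pCDH control. Vector, line history and harvest cannot be told apart between these single libraries.

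The knockdown comparison set both hairpin libraries against the sh control in edgeR (14913 genes, 42 of them members, 1 residual degree of freedom). No member passed at an adjusted p of 0.05: edgeR called 0 of 42 members and 0 genes in all (0%). At an unadjusted p under 0.05 it had 1 member (2.38%), IFITM3, against 5.87% of genes, and DESeq2 called 0 of 47 members. The median log2 change of members was -0.33 against 0.07 over all genes, with 17 above 0 and 25 below. By library size it was 0.16 and by the authors' TPM (pseudocount 1) 0.42, on scales where the median of all genes was 0.62 and 0.84, so the median member lay below the median gene on each. Over these 42 members it was 0.03 with sh1088 and -0.94 with sh1196 as the only knockdown library. When both were fitted against the pCDH control, it was 0.94 over 43 members, against 0.05 over all 15508 genes of that fit. The 5 members at the low end, among those with at least 20 counts in a library compared, were IFITM3 at -1.55 (SE 0.61, edgeR adjusted p = 0.828), IFI16 at -1.42 (SE 0.77), IFIT3 at -1.36 (SE 0.71), IFITM2 at -1.23 (SE 0.62) and ISG20 at -1.20 (SE 1.29). At the high end were GBP1 at 1.14 (SE 1.17), SP100 at 0.78 (SE 0.46), IRF1 at 0.74 (SE 0.46), HERC5 at 0.74 (SE 0.59) and IRF9 at 0.58 (SE 0.59), which lay above the sh control in sh1088 and below it in sh1196. Their edgeR adjusted p ran from 0.828 to 0.888. Against the pCDH control IFI16 stood at 4.55 and ISG20 at 0.27.

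The 2 hairpin libraries were far apart in these genes, and sh1196 was the low one. Against the sh control, sh1088 had 2 of 40 members at least 2-fold higher (BST2 and IRF9, against 7.58% of genes) and 1 lower (IFITM3, against 6.48%). Against the same sh control library, sh1196 had 1 member at least 2-fold higher (GBP1, against 13.5% of genes) and 20 lower (against 15.5%). Over these 40 members the medians were -0.03 and -0.94. In the direct ratio of sh1196 to sh1088, a comparison added after the values had been seen, 18 of 40 members were at least 2-fold lower, against 10.4% of all 13821 genes, and 0 higher, against 8.36%. Its median was -0.78, with 0.01 over all genes. By library size alone the count was 9 lower and 3 higher, and by TPM (pseudocount 1) 8 lower and 5 higher, with a median of -0.05 where that of all genes was 0.63. The members furthest apart were IFI27 (-4.53), BST2 (a bound of -4.13), IFITM1 (-3.72), ISG20 (-3.15), OAS1 (-3.09), MX1 (-2.96) and IFI6 (-2.71). RBMS1 was at 18.3 scaled CPM in sh1088 and 13.3 in sh1196, and the share of nuclear protein-coding counts was 42.2% and 66.0%. Their part in the difference was not tested.

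**Figure D4:**
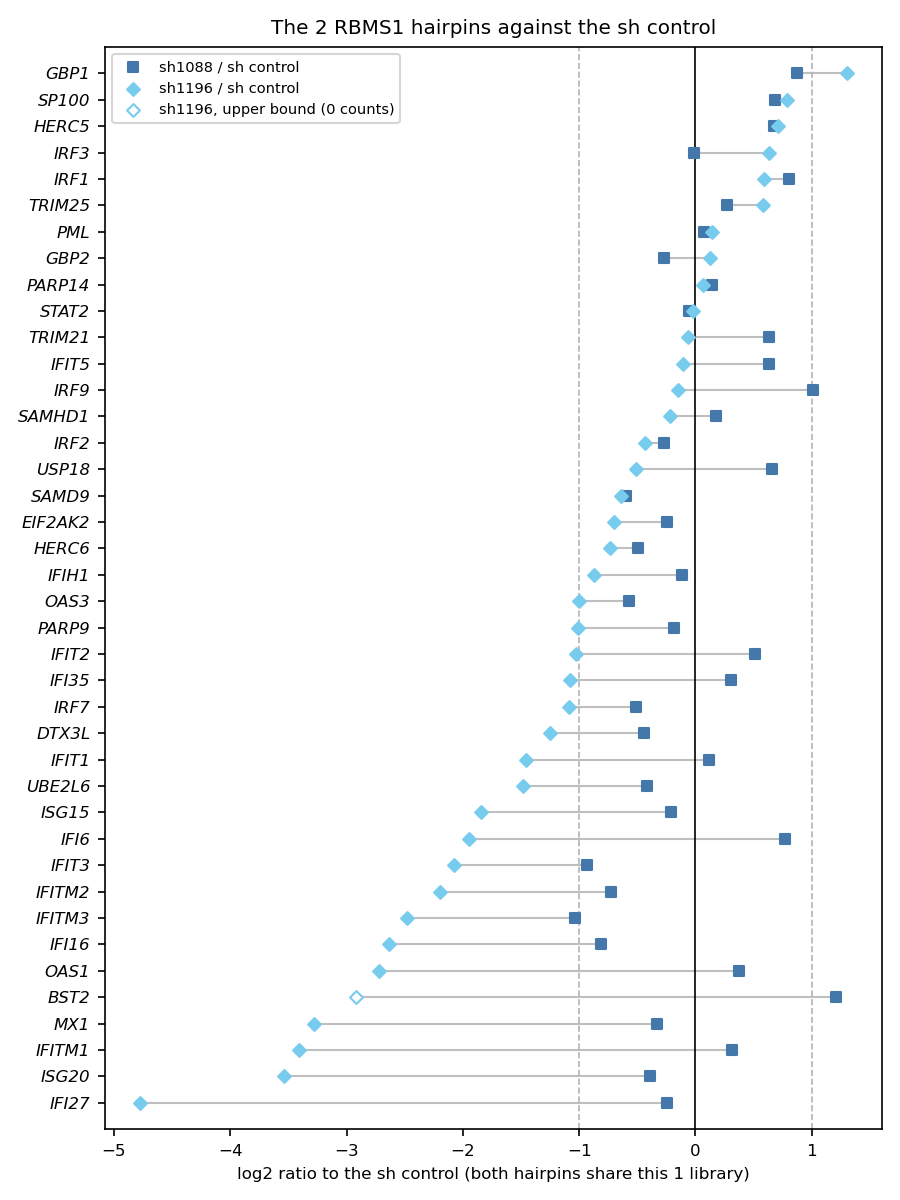
Log2 ratio of each knockdown library to the sh control (TMM scale) for the 40 members, ordered by sh1196; squares are sh1088, diamonds sh1196, and the open diamond is a bound for BST2 (0 counts in sh1196). The squares have a median of -0.03 and the diamonds of -0.94, and at the bottom IFI27, ISG20, IFITM1 and MX1 lie more than 3 log2 units below the sh control in sh1196 only.

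A last fit ordered all 5 libraries by RBMS1 level (knockdown, control, overexpression), allowed for the 2 vector systems and kept 2 residual degrees of freedom. Again edgeR called 0 of 42 members and 0 of 14523 genes (0%), and DESeq2 called 0 of 40 members. At an unadjusted p under 0.05 edgeR had 4 members (9.52%), against 6.62% of genes: IFI16 at 2.89, PARP9 at 1.31, DTX3L at 1.15 and OAS3 at 0.88 per level step. The median was 0.87 against 0.03 over all genes, and 36 of 42 members were above 0, against 52% of all genes. The steps behind this slope were uneven. Over 40 members the median log2 ratio of overexpression was 1.00 to the pCDH control but -0.15 to the sh control. To the sh control it was -0.94 for sh1196 but -0.03 for sh1088. IFI16 passed without the low-count filter (edgeR adjusted p = 0.0227), and IFI27 passed when sh1088 was left out (4.14, edgeR adjusted p = 0.0375).

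In the authors' deposited table for overexpression, 18 of 47 members were classed as up and 1 (IRF3, -0.99) as down, against 13.7% and 11.7% of 17714 genes with an adjusted p. The authors' deposited table for knockdown classed 0 of 45 members as up and 1 as down, which was IFITM3 (-1.55, adjusted p = 0.0314), against 1.69% and 1.77% of genes. The labels give 1 library to each side of the first of these tables, but its log2 fold changes did not all match the ratios given here. For EIF2AK2 it had 1.49 where the ratio here was 1.50, and for IRF3 both were -0.99. It had 1.25 against 1.95 for IFITM1, 0.19 against 0.75 for OAS1 and 1.56 against 1.48 for HERC5. Its classes thus need not rest on the same comparison as the ratios above, and why the values differ was not tested.

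Members with and without an ISRE-like match in the promoter window gave the following values. For overexpression to the pCDH control the median log2 ratio was 1.51 over 20 members with a match, of which 15 were at least 2-fold higher. It was 0.91 over 12 without, of which 4 were, where 16.1% of all genes were. For sh1196 to sh1088 the medians were -0.97 (10 of 20 at least 2-fold lower) and -0.61 (5 of 12), where 10.4% of all genes were. For the pCDH control to the sh control they were -1.45 (14 of 20) and -0.85 (6 of 12), where 20.9% of all genes were at least 2-fold lower. This ratio shares the pCDH library with the overexpression ratio, so their values mirror each other in part. Whether members with and without a match differ was not tested. IFI16, among the members with the largest ratios, has no match in its window.

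The upstream part of the pathway was measured as well. Of 8 interferon ligand genes 6 had 0 counts in all 5 libraries and none reached a mean of 1 CPM. IFNB1 had 2 counts, in sh1088 only, and IFNE, the epithelial type I interferon, had 5 to 20. All 10 receptor and kinase genes were measured, and their median overexpression log2 ratio was -0.26. Against the pCDH control 16.1% of all genes were at least 2-fold higher and 17.5% lower, and the small counts in these lists are not set apart from those shares. Above the 2-fold mark was IFNGR1, the ligand-binding chain of the interferon gamma receptor (1.10). Below it were TYK2 (-1.51) and IFNLR1, the interferon lambda receptor chain (-2.56). The pCDH control itself differed from the sh control in these genes, with log2 ratios of 0.62 for IFNGR1, 1.33 for TYK2 and 1.48 for IFNLR1. TYK2 was at 8.02 scaled CPM in the sh control, 20.2 in the pCDH control and 7.07 in overexpression, and IFNLR1 at 2.63, 7.36 and 1.25. Of 6 brakes, SOCS1, an inhibitor of JAK kinases that interferon itself induces, had 83 counts in the pCDH control and 2 in overexpression, or 4.81 and 0.166 scaled CPM. PIAS1 (1.68) and PTPN2 (1.05) were at least 2-fold higher. The pCDH control differed from the sh control in these brakes too, with log2 ratios of 1.80 for SOCS1, -1.20 for PIAS1 and -0.87 for PTPN2. SOCS1 was at 1.38 scaled CPM in the sh control. Among 8 measured genes of nucleic acid sensing, DDX58 (RIG-I, 1.31) and TBK1 (1.21) were at least 2-fold higher and 0 lower. For the pCDH control to the sh control, DDX58 and TBK1 stood at -0.54 and -0.61. In both the knockdown and the level fit edgeR called 0 genes of these 4 lists.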

How the data were processed

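The 47 members and all gene lists were chosen with earlier results of these data known. The authors deposited RSEM expected counts, TPM and FPKM per gene with gene and effective lengths, per the file headers. FPKM was not used. Their 2 deposited comparison tables give log2 fold changes and adjusted p-values. STAR 2.4.2, RSEM 1.3.1, Bowtie and DESeq2 are listed in the submitters' processing notes. The build behind the alignment is not given in the sources used here, so genes were matched by identifier to GENCODE release 29 (58656 of 58929).

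Expected counts were rounded and tested over all genes with the quasi-likelihood test of edgeR 4.0.16 (R 4.3.3; TMM scaling, filterByExpr, adjusted by Benjamini-Hochberg, threshold 0.05), which was tested on simulated data first. Named are members with a mean of at least 5 CPM and, for knockdown and overexpression, the 5 furthest in each direction with at least 20 counts in a library compared; members under 1 CPM are given as counts. Others named were chosen after their values were seen. A few genes of the wider pathway and marker lists are not reported here by name. Single libraries were compared by ratios of TMM-scaled counts at a 2-fold threshold, with 95% exact conditional counting intervals. PCR copies are not independent molecules. Alternatives were other scalings, filters and controls, DESeq2 1.42.0, TPM with pseudocounts of 1 and 0.1, a GC trend (lowess, span 0.3) taken out, and each hairpin left out.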

Additional observations from a re-analysis of the deposited data

How the results depend on the processing

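Knockdown: edgeR called 0 members under each alternative run. Leaving out a hairpin leaves 1 library against 1, so members called were not run for that. The median log2 change was -0.33 and turned to 0.16 by library size (all genes 0.62), 0.42 and 0.74 by TPM with a pseudocount of 1 and 0.1 (all genes 0.84 and 1.26), and 0.94 with the pCDH control in place (all genes 0.05). Without 1 hairpin it ranged from -0.94 to 0.029. IFI16 (4.55) and ISG20 (0.27) turned with the pCDH control in place. Level fit: 0 members called, and 1 without the low-count filter (IFI16). Leaving out 1 hairpin gave 0 to 1 (IFI27 without sh1088).

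Calls over all genes, 0 in both main fits, were 27 in knockdown by library size, 102 with no filter, 11 at a mean CPM of at least 5, 13 by DESeq2, 4 with nuclear protein-coding genes only and 93 with the pCDH control in place. In the level fit they were 28 by library size, 89 with no filter, 2 at a mean CPM of at least 5, 56 by DESeq2, and 28 and 22 without sh1088 or sh1196.

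Overexpression: from 20 members at least 2-fold higher, 0 lower and a median of 1.00, TPM gave 9, 1 and 0.29 (pseudocount 1) or 11, 3 and 0.32 (pseudocount 0.1, all genes -0.80), the sh control in place gave 2, 6 and -0.15, and library size gave 1 lower. IFI16 (-0.65), MX1 (-0.22) and IFI27 (-1.26) turned with the sh control in place. The share of all genes past the 2-fold mark was counted in the main setting only, here and for the ratios below.

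pCDH to sh control: from 1 higher, 22 lower and -1.19, library size gave 2, 11 and -0.34 (all genes 0.83), TPM 13, 3 and 0.67 or 20, 6 and 1.01 (all genes 1.69 and 2.25), and the GC trend taken out 0 higher. For sh1196 to sh1088: from 0 higher, 18 lower and -0.78, library size gave 3, 9 and -0.17 (all genes 0.63), TPM 5, 8 and -0.049 or 8, 10 and -0.059 (all genes 0.63 and 0.82). The cause of these changes was not tested. Counts of 0 to 3 in a library leave BST2, GBP1, IFI16, IFIT1 and MX1 with bounds or wide intervals. The 7 members under a mean of 1 CPM were left out of the main counts of ratios. Of these, OASL and IFI44 passed the filter of the knockdown and level fits and are part of their medians. No paired analysis was possible because the knockdown replicates have no matching control replicates.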

Other observations

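A list of 26 further interferon-stimulated genes, of which 25 were analysed and 19 had a mean of at least 1 CPM, was set beside the members. Its median log2 ratio for overexpression to the pCDH control was 0.66, with 7 genes at least 2-fold higher and 0 lower, where 16.1% and 17.5% of all genes were. SAMD9L (2.95), the helicases DDX60 (1.86) and DDX60L (1.81), the restriction factor TRIM22 (1.80), the scramblase PLSCR1 (1.77), SLFN5, a Schlafen protein (1.55), and NMI (1.24) were the 7. For the pCDH control to the sh control, a ratio that shares the pCDH library, the median was -0.63 with 7 genes at least 2-fold lower and 3 higher, where 20.9% and 19.8% of all genes were. IFI30, a lysosomal thiol reductase (1.59), and LGALS3BP, a secreted glycoprotein (1.14), were among those higher. Between sh1196 and sh1088 the median was -0.10. TRIM22 (-1.13) was at least 2-fold lower and BATF2 (16 counts against 2) higher, where 10.4% and 8.36% of all genes were. SLFN5 was at 68.3, 61.5, 70.4, 20.6 and 60.6 scaled CPM in the sh control, sh1088, sh1196, the pCDH control and overexpression, so the pCDH control was its only low library. The chemokines CXCL10 and CXCL11 and the antiviral enzyme RSAD2 had 0 to 4 counts in every library. In knockdown and in the level fit edgeR called 0 of 20 of these genes in each.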
